A study of Mus musculus with 2 samples.

Results

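The 9 genes described here make, break down or sense the endocannabinoids: the receptor genes Cnr1 and Cnr2, the 2-AG synthesis genes Dagla and Daglb, the 2-AG breakdown genes Mgll, Abhd6 and Abhd12, and the anandamide genes Napepld and Faah. They were chosen by name for their roles and not by their level, from 43346 mouse genes in the gene tables, and all 9 were found. RNA had been sequenced from 2 pools of 50 Purkinje cells each, the inhibitory output neurons of the cerebellar cortex, taken by laser capture per a linked protocol. The source was adult male wild-type C57Bl6 mouse, strain B6NCrl, 8 months old, with no treatment or altered allele in the labels. The pools, called pool 1 and pool 2 after their replicate numbers, form 1 group, and no condition was compared. Both carry the same donor identifier, so separate animals are not established. Differences between the 2 libraries may be technical or lie in the cells captured, which cannot be told apart here. A Smart-seq protocol is linked for pool 2 alone. For pool 1 the labels provide no library protocol.

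Endocannabinoids are lipid messengers that a neuron makes on demand and that act backwards on its inputs. In Purkinje cells, glutamate input and calcium entry lead to diacylglycerol, which diacylglycerol lipase turns into 2-arachidonoylglycerol, 2-AG. The lipid then acts on the cannabinoid receptor CB1 on the terminals of parallel fibres, climbing fibres and interneurons, and lowers their release of transmitter. Anandamide, the other main endocannabinoid, comes from N-acyl phospholipids and is cut by fatty acid amide hydrolase.

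The sequences next to the starts of the receptor genes are shown because Cnr1 was among the well-expressed members and Cnr2 was close to absent, and because Cnr1 had reads assigned to a pair of start sites. They are RefSeq sequences on GRCm38.p6, plus strand, each ending before an annotated transcript start, and capitals mark GGGCGG or its reverse complement CCGCCC, the GC box letters bound by Sp1-type factors. The upstream Cnr1 stretch lies at chr4:33924014-33924263, before the most upstream RefSeq start at 33924264. No quantified Cnr1 transcript starts there, and GENCODE starts Cnr1-201 further on at 33924632. The stretch before the downstream Cnr1 start, that of Cnr1-202, lies at chr4:33926130-33926201, and the Cnr2 stretch at chr4:135894939-135895188. The Cnr2 stretch is the more upstream, before the start of Cnr2-202. A further Cnr2 stretch, at chr4:135911430-135911679 before the start of Cnr2-201, is not printed and was 46.4% G or C with 3 CG pairs.
Cnr1 upstream start: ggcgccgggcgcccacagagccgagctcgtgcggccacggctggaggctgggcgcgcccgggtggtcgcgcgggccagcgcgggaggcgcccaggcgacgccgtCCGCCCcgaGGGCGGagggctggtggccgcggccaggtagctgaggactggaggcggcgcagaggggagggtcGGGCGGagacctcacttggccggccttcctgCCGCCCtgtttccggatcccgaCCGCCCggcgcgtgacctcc
Cnr1 downstream start: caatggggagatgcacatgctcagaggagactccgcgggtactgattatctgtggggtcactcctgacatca
Cnr2: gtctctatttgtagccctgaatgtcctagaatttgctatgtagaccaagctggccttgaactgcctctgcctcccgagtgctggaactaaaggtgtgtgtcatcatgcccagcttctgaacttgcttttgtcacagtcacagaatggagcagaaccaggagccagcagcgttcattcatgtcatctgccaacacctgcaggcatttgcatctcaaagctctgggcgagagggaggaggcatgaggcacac
The upstream Cnr1 stretch was 79.2% G or C, with 36 CG pairs in 250 nt and 5 GC boxes over both strands. A Cnr1 stretch nearer to the start of Cnr1-201, at chr4:33924394-33924592 and not printed, was 71.9% G or C with 24 CG pairs in 199 nt and 0 GC boxes. The stretch before the downstream start was 54.2% G or C with 2 CG pairs in 72 nt, and the Cnr2 stretch was 51.6% with 3 CG pairs in 250 nt. In RefSeq windows of 300 nt around gene starts, from 250 nt before to 50 nt after, the median of 32851 windows was 52.7% G or C with 7 CG pairs. These windows are longer than the stretches above. In them the upstream Cnr1 start had 76.3% G or C with 40 CG pairs, and the start nearer to Cnr1-201 had 69% with 33. The window that holds the 72-nt stretch is around a RefSeq start at 33926380 and had 46.3% with 5, below the median. It lies mostly within Cnr1-202, which starts at 33926202, so it is no window around that start. The Cnr2 start of the printed stretch had 50% with 3. GGGCGG on either strand was in 35.7% of all windows and in 6 of the 12 windows of these genes. The TATA box letters TATAAA on either strand were in 13.6% of all windows and in 0 of the 12. The windows covered 7 of the 9 genes, without Dagla and Abhd12. Some of these genes have several windows, and those of Abhd6 overlap each other, as do those of Mgll, so the 12 are not independent. A match is a description of the letters only.

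Sequence stretches are shown as well for Abhd12 and Mgll, since their transcripts differ in parts that the transcript values below rest on. The Abhd12 stretch, at chr2:150842511-150842570 on the minus strand, is the 60 nt that the non-coding transcript Abhd12-207 holds and the coding transcript Abhd12-201 lacks, and it lies in an intron of the latter. Abhd12-201 in turn holds 767 nt that Abhd12-207 lacks. The Mgll stretch, at chr6:88813880-88813963 on the plus strand, is 84 nt of coding sequence that Mgll-202 holds and Mgll-203 lacks. Both are in GENCODE M21 on GRCm38, and both run in the direction of the transcript.
Abhd12-207 own stretch: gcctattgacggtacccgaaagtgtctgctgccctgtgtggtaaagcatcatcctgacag
Mgll-202 coding stretch: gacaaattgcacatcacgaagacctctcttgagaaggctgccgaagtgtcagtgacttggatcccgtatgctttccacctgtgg

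Pool 1 held 23830685 expected counts, the deposited estimate of reads per gene, and pool 2 held 27907662, with 1.40% and 0.940% of them from ERCC spike-in RNAs. Levels are in TPM, a relative transcript abundance that corrects for transcript length and so allows comparison between genes. A gene was called detected where each pool reached a TPM of 1, which 11092 of 21474 protein-coding genes reached, with a median mean level of 12.3 TPM. Of 10 Purkinje cell markers 10 were detected, led by Pcp4 at 16961 TPM and Pcp2 at 6384 TPM on average, and they summed to 31919 TPM in pool 1 and 30154 TPM in pool 2. Markers of other cells were present too. The sums in pool 1 and pool 2 were 4428 and 4657 TPM for 11 of 11 detected markers of Bergmann glia and astrocytes, 111 and 143 TPM for 7 of 8 granule cell markers, and 53.8 and 71.2 TPM for 6 of 6 molecular layer interneuron markers. They were 225 and 217 TPM for 8 of 8 oligodendrocyte markers, 123 and 150 TPM for 7 of 8 endothelial and pericyte markers, 21.4 and 34.9 TPM for 5 of 9 microglial markers, and 651 and 2274 TPM for 5 of 5 blood markers. Oligodendrocyte precursor markers were detected in 0 of 2 cases.

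Of the 9 endocannabinoid genes 8 were detected in both pools, and Cnr2 was not. Mean levels ran from 156 TPM for Abhd12, which stood apart with Abhd6, down to 1.46 TPM for Napepld. In descending order of the mean they were Abhd12, Abhd6, Mgll, Cnr1, Daglb, Dagla, Faah, Napepld and Cnr2. The ranges of the pools did not overlap between Abhd12 and Abhd6, Abhd6 and Mgll, Cnr1 and Daglb, or Faah and Napepld, whose means differed by 1.44-fold, 3.71-fold, 2.67-fold and 4.96-fold. Mgll and Cnr1 changed places between the pools, as did Daglb and Dagla, and Dagla and Faah, so these neighbours were not separated. Since markers of other cells were detected, fewer cells of a type and less RNA per cell cannot be told apart for any of these levels.

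**Figure D1:**
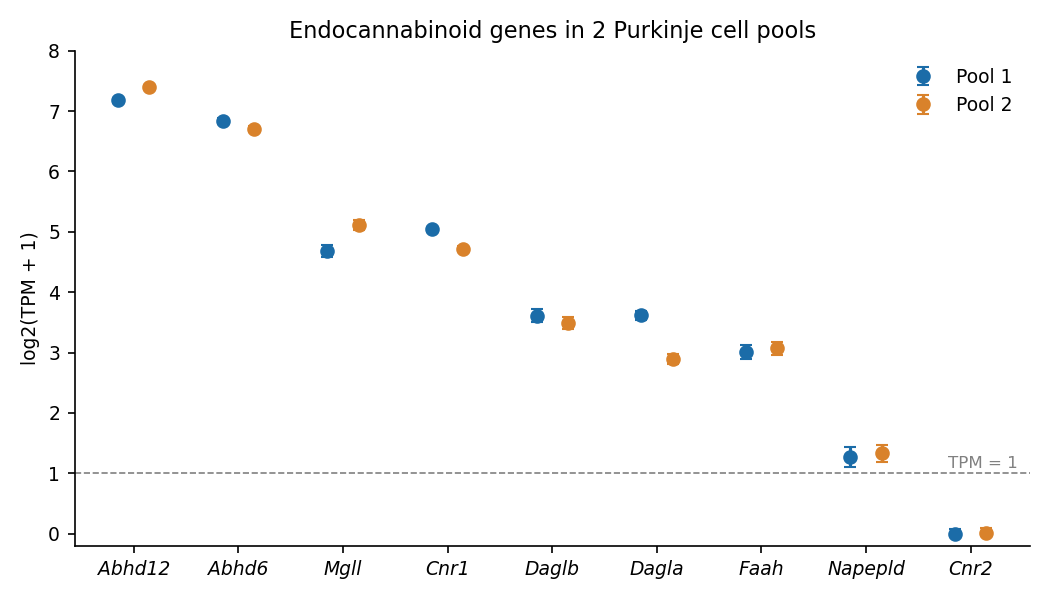
Level of each endocannabinoid gene in pool 1 and pool 2, as log2(TPM + 1) on the vertical axis. Bars are exact Poisson 95% counting intervals, often smaller than the point. Abhd12 and Abhd6 lie highest, and Cnr2 lies at 0 TPM in pool 1 and 0.01 TPM in pool 2, below the dashed line at a TPM of 1.

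Cnr1, which encodes the CB1 receptor coupled to Gi and Go proteins, was at 31.9 TPM in pool 1 and 25.3 TPM in pool 2, from 3594 and 3608 expected counts. Its mean was 28.6 ± 4.62 TPM (SD, n = 2), a level above 71.1% of the detected protein-coding genes in pool 1 and 67.8% in pool 2. The gene lies at chr4:33924593-33948831 on the plus strand. Counting intervals of 30.9 to 33.0 TPM and 24.5 to 26.2 TPM did not overlap, with pool 1 the higher. Cnr2, which encodes the CB2 receptor of immune cells, lies on the same chromosome at chr4:135895394-135920207, plus strand. It had 0 counts in pool 1 and 1 count in pool 2, where its level was 0.01 TPM. A count of 0 allows up to 3 counts, which is 0.0407 TPM in pool 1, and 3 counts are 0.0326 TPM in pool 2. Cnr1 thus made up 100% and 99.96% of the summed receptor TPM.

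CB1 is known from granule cell and interneuron terminals, so the levels of those cells' markers are set beside it. Granule cell markers were led by Gabra6, a GABA receptor subunit, at 38.5 TPM in pool 1 and 51.2 TPM in pool 2, and by Neurod1, a transcription factor, at 23.6 and 30.7 TPM. Interneuron markers were led by Prkcd, a protein kinase C, at 9.83 and 38.6 TPM and by Nxph1, a secreted neurexin ligand, at 16.4 and 11.2 TPM. The summed granule cell level was higher in pool 2, and so was the summed interneuron level. The latter rested on Prkcd, without which the other 5 interneuron markers summed to 44.0 TPM in pool 1 and 32.6 TPM in pool 2, with 3 of the 5 lower in pool 2. The part of these cells in the Cnr1 level was not tested. Microglial markers were led by C1qb at 8.66 and 12.8 TPM, and Cnr2 stayed at 0 and 1 count beside them.

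Dagla encodes the diacylglycerol lipase alpha that makes most 2-AG in the adult brain, and Daglb encodes the related beta enzyme. Dagla, at chr19:10245265-10304877 on the minus strand, was at 11.3 TPM in pool 1 and 6.39 TPM in pool 2, from 1208 and 880 counts, with a mean of 8.84 ± 3.47 TPM (SD, n = 2). Daglb, at chr5:143464584-143505942 on the plus strand, was at 11.2 TPM and 10.2 TPM, from 633 and 728 counts, with a mean of 10.7 ± 0.693 TPM (SD, n = 2). The genes were level in pool 1, and Daglb was the higher in pool 2. Dagla took 50.2% of their summed TPM in pool 1 and 38.4% in pool 2, a mean of 44.3% ± 8.31 (SD, n = 2). By counts, which favour the longer Dagla transcript, its mean share was 60.2%.

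Of the 3 enzymes that hydrolyse 2-AG, Abhd12 and Abhd6 stood far above the enzymes that make it, while Mgll stood closer to them. Abhd12 encodes a membrane hydrolase of the endoplasmic reticulum that also cleaves lysophosphatidylserine. It lies at chr2:150832493-150904741 on the minus strand and was at 144 TPM in pool 1 and 168 TPM in pool 2, from 4382 and 6423 counts, with a mean of 156 ± 16.8 TPM (SD, n = 2). That was above 91.6% and 93.0% of the detected protein-coding genes. Abhd6 encodes a membrane hydrolase known from postsynaptic sites, at chr14:8002902-8056763 on the plus strand. It was at 113 TPM and 103 TPM, from 3379 and 3834 counts, with a mean of 108 ± 7.02 TPM (SD, n = 2). Mgll encodes monoacylglycerol lipase, the main 2-AG hydrolase of axon terminals and of astrocytes in brain, at chr6:88724412-88828360 on the plus strand. It was at 24.6 TPM and 33.7 TPM, from 718 and 1302 counts, with a mean of 29.1 ± 6.40 TPM (SD, n = 2).

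Within the 2-AG breakdown group, Abhd12 took 51.1% and 55.1% of the summed TPM, Abhd6 took 40.2% and 33.9%, and Mgll took 8.73% and 11.1%. The order of the 3 enzymes was the same in both pools. Abhd12 stood at 5.85 times the Mgll level in pool 1 and at 4.99 times in pool 2, and Abhd6 at 4.60 and 3.07 times. The group summed to 282 TPM and 305 TPM, against 22.5 TPM and 16.6 TPM for Dagla and Daglb, so the ratio of breakdown to synthesis transcripts was 12.5 and 18.3. With Mgll alone it was 1.09 and 2.02. Such ratios compare RNA levels and say nothing of enzyme activity. They count all transcripts of each gene, with the non-coding ones of Abhd12 and a Daglb transcript of unknown kind, both described below. They are not adjusted for length. Long transcripts, Dagla among them, were lower in pool 2 relative to short ones, as described below. Markers of Bergmann glia and astrocytes were led by Apoe, a lipid carrier, at 1825 and 2492 TPM and Slc1a3, a glutamate transporter, at 1084 and 852 TPM. Their summed level was higher in pool 2, which rested on Apoe. The median log2 ratio of the 11 markers, pool 2 over pool 1, was -0.28. The part of these cells in the Mgll level was not tested.

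**Figure D2:**
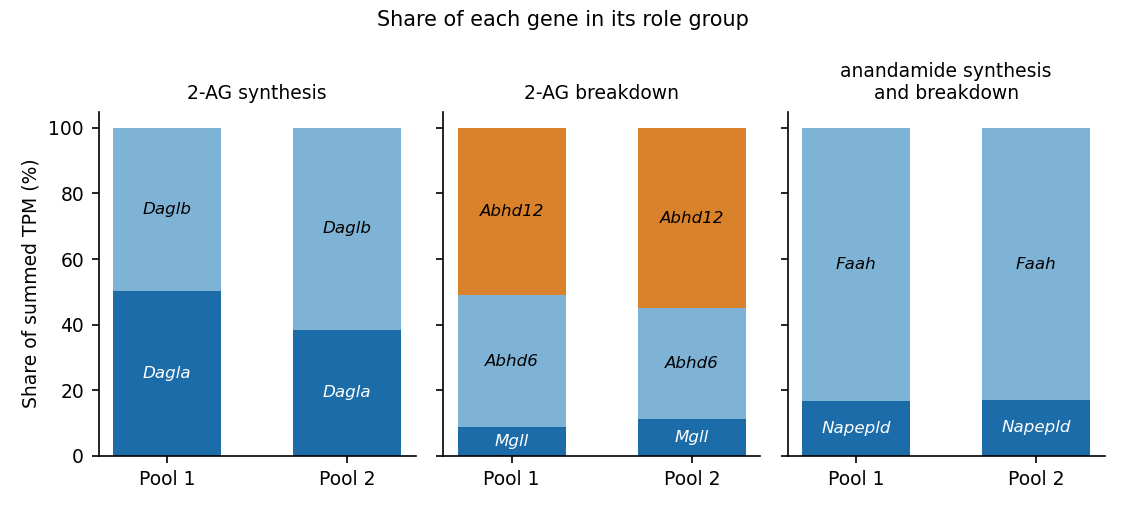
Share of each gene in the summed TPM of its role group, in percent, with 1 bar for each pool. Abhd12 and Abhd6 fill most of the 2-AG breakdown bars, Dagla and Daglb are close to level in pool 1, and Faah takes 83.4% and 83.1% of its pair.

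The anandamide genes had the lowest means of the detected members, though Faah was not separated from Dagla. Faah encodes fatty acid amide hydrolase, which breaks down anandamide and other fatty acid amides, at chr4:115967145-116017926 on the minus strand. It was at 7.07 TPM in pool 1 and 7.41 TPM in pool 2, from 462 and 580 counts, with a mean of 7.24 ± 0.240 TPM (SD, n = 2). Napepld encodes the phospholipase D that releases anandamide from N-acyl phosphatidylethanolamine, at chr5:21662901-21701396 on the minus strand. It was at 1.41 TPM and 1.51 TPM, from 106 and 146 counts, with a mean of 1.46 ± 0.0707 TPM (SD, n = 2). Napepld lay above no more than 3.30% and 4.57% of the detected protein-coding genes. Faah was at 5.01 times the Napepld level in pool 1 and at 4.91 times in pool 2, and this ratio moved least between the pools of those described. The summed diacylglycerol lipase level was 16.0 times that of Napepld in pool 1 and 11.0 times in pool 2.

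Transcripts of each gene were compared by the deposited percent of the gene's TPM. The transcript with the highest percent was the same in both pools for all 8 detected members. The share of all genes for which this holds was not computed, so the count is no trait of these genes. Transcript kinds were taken from GENCODE M21, whereas the authors used release M4, and 14 of the 38 transcripts had the same version in both. The estimates divide reads between overlapping transcripts.

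For Abhd12, the coding transcript Abhd12-201 took 48.2% and 46.9% of the TPM, a mean of 47.5% ± 0.933 (SD, n = 2). The non-coding Abhd12-207, which starts within the gene, 62171 nt downstream of the start of Abhd12-201, took 43.8% and 44.5%. It shares 1232 of its 1292 nt with the coding transcript, and its own 60 nt are the stretch printed above. Non-coding, decay and retained-intron transcripts of Abhd12 summed to 51.8% and 53.1%. Counting coding transcripts alone, Abhd12 was at 69.4 TPM and 78.6 TPM, below the 113 TPM and 103 TPM of Abhd6, all of whose TPM was coding. On that count the mean shares of 2-AG breakdown were 51.8% for Abhd6, 35.3% for Abhd12 and 12.9% for Mgll, so the order of Abhd12 and Abhd6 turned.

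For Cnr1, the downstream start of Cnr1-202 took 60.6% and 59.6% of the TPM, a mean of 60.1% ± 0.721 (SD, n = 2). Cnr1-201, from its start at 33924632 and not the RefSeq start of the printed upstream stretch, took 39.4% and 39.9%. The starts of these transcripts lie 1570 nt apart, and both transcripts carry the same 1419 nt of coding sequence. They share 5268 nt, with 493 nt that belong to Cnr1-202 alone and 539 nt to Cnr1-201 alone. The authors' bounds in pool 1 were 15.0 to 23.4 TPM for Cnr1-202 and 7.78 to 15.9 TPM for Cnr1-201, so they overlapped slightly. In pool 2 the bounds were 11.9 to 17.0 TPM and 7.67 to 12.7 TPM and overlapped as well.

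For Mgll, transcripts that hold the 84-nt coding stretch printed above came to 47.1% and 45.01% of the TPM, a mean of 46.1% ± 1.504 (SD, n = 2), all from Mgll-202. Coding transcripts without it came to 44.7% and 48.3%. A later coding stretch of 135 nt, also absent from Mgll-203, was in transcripts that held 64.4% of the TPM in either pool. Mgll-203, which lacks both stretches, took 27.5% and 28.5%.

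Dagla, Napepld, Abhd6 and Faah each had a coding transcript in the lead. Dagla-201 held 97.0% and 94.5% of Dagla, and Napepld-202 held 74.4% and 94.1% of Napepld, with the same coding sequence as the remaining Napepld transcript. For Abhd6, Abhd6-201 held 67.2% and 71.9%, and Abhd6-202, with the same coding sequence, the rest. Faah-201 held 79.6% and 66.9% of Faah, while Faah transcripts with a retained intron held 7.79% and 24.97%, from 13.7 and 87.2 expected counts. In Daglb the leading transcript, with 64.1% and 60.1%, has no entry in GENCODE M21, so its kind is not given, and the coding Daglb-201 held 34.9% and 36.4%.

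**Figure D3:**
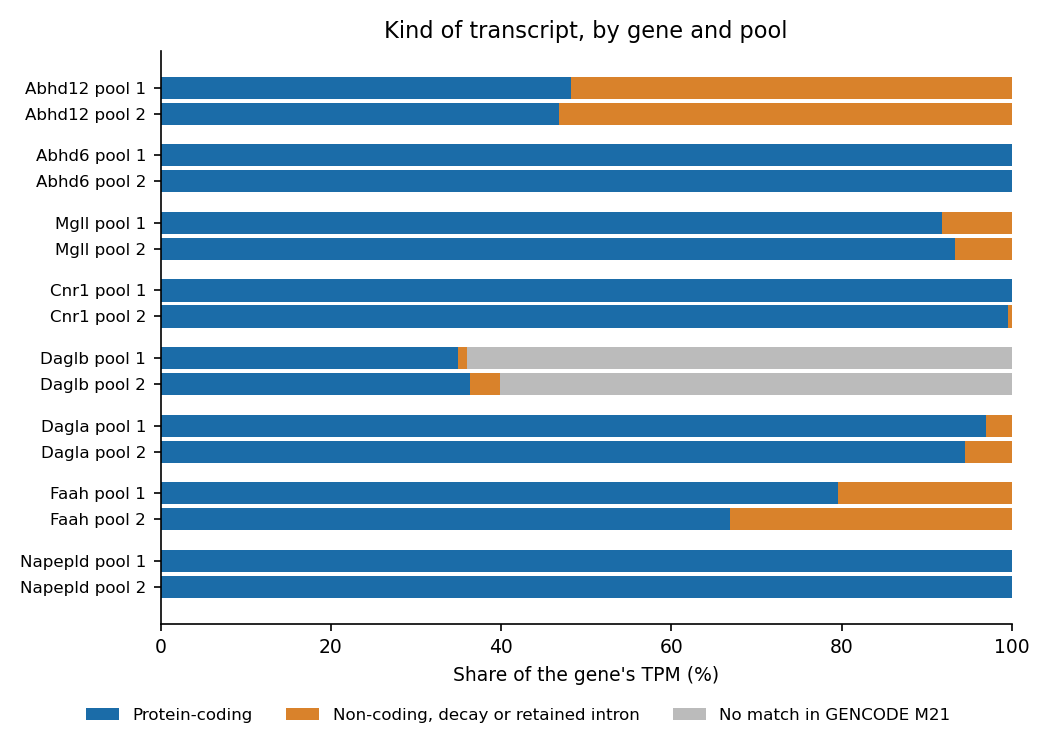
Share of each gene's TPM, in percent, from protein-coding transcripts, from non-coding, decay or retained-intron transcripts, and from transcripts with no match in GENCODE M21, with 1 bar for each gene and pool. Non-coding kinds make up 51.8% and 53.1% of Abhd12 and none of Abhd6 or Napepld.

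The pools differed by less than 1.5-fold for 7 of the 8 detected members. On the log2(TPM + 1) scale, which understates ratios of low genes, pool 2 minus pool 1 was 0.44 for Mgll, 0.22 for Abhd12, 0.06 for Faah and 0.06 for Napepld, and it was -0.12 for Daglb, -0.13 for Abhd6, -0.32 for Cnr1 and -0.74 for Dagla. The median of the 8 was -0.03, beside -0.07 over the 13210 genes whose mean TPM was 1 or more, where the SD was 0.44. Of the 8 members above that level, 0 were higher in pool 2 by 1.5-fold or more, against 4.26% of all genes. Dagla was the 1 member lower by 1.5-fold or more, against 7.24% of all genes, and 0 of 8 passed 2-fold in either direction, against 2.79%. With 1 library on each side there is no test of these differences.

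Dagla was at 0.566 times its pool 1 TPM in pool 2, and 3.92% of all genes had a lower log2 ratio. Its counting intervals were 10.7 to 12.0 TPM and 5.97 to 6.83 TPM and lay apart. Long transcripts were lower in pool 2 relative to short ones: on the TPM scale genes with an effective length under 1000 nt had a median log2 ratio of 0.11 and those of 4000 nt or more one of -0.25, where 12.6% were lower by 1.5-fold or more. Dagla is among the long ones, as is Cnr1, with effective lengths of 5428 nt and 5668 nt. After adjustment for length and level the log2 ratio was -0.48 for Dagla and -0.04 for Cnr1, and 0 of 8 members passed 1.5-fold, against 9.40% of all genes. With DESeq2 size factors Dagla at -0.71 and Mgll at 0.60 both passed, 2 of 8 against 15.4% of all genes.

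The counting intervals of the pools lay apart for 5 members, Abhd12, Abhd6, Mgll, Cnr1 and Dagla, and overlapped for Daglb, Faah and Napepld. They lay apart for 48.5% of all genes. Those of Mgll were 22.8 to 26.5 TPM and 31.9 to 35.5 TPM. For the scale of the spike-ins, their median log2 ratio of -0.66 was subtracted from the log2 ratio of every gene. The median over all genes thereby moved to 0.59, and Dagla moved to -0.08. Relative to the median of all genes the difference was 0.51 for Mgll and -0.66 for Dagla on the TPM scale.

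**Figure D4:**
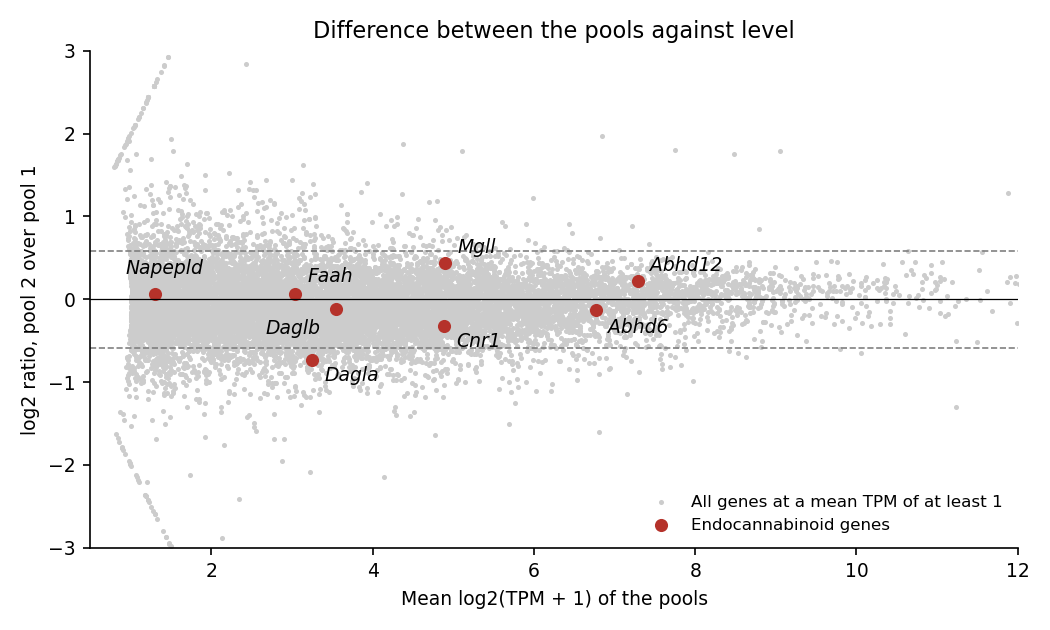
Difference of log2(TPM + 1), pool 2 minus pool 1, against the mean log2(TPM + 1) for all genes whose mean TPM was 1 or more (grey) and the 8 endocannabinoid genes (red). Dashed lines mark 1.5-fold, 44 genes lie outside the axes, and of the 8 genes Dagla alone lies past a dashed line.

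The other 38 genes of the pathway, grouped by role, were all found, and 28 were detected. Of the 29 with a mean TPM of 1 or more, 0 were higher in pool 2 by 1.5-fold or more and 1 was lower, against 4.26% and 7.24% of all genes, with a median log2 ratio of -0.10.

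Of the genes that drive 2-AG synthesis 7 of 9 were detected. Plcb4, the main phospholipase C beta of most Purkinje cells, was at 352 TPM in pool 1 and 177 TPM in pool 2 and was the 1 pathway gene past 1.5-fold, at -0.99 on the log2 scale. Homer3, a postsynaptic scaffold protein, was at 184 and 147 TPM. On the TPM scale both were lower in pool 2, as Dagla was, while on the spike-in scale Plcb4 was at -0.33 and Homer3 at 0.33. Both stood above Dagla in both pools. Plcb1, a further phospholipase C beta of this group, was lower in pool 2 as well on the TPM scale. It was at 30.5 TPM in pool 1 and 23.5 TPM in pool 2, a log2 ratio of -0.36. Plcb3, also of this group, went the other way on the TPM scale. It was at 7.85 TPM in pool 1 and 11.8 TPM in pool 2, a log2 ratio of 0.53. Whether the pools differ in their kinds of Purkinje cell was not tested.

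Among other 2-AG routes and lipid carriers 6 of 8 were detected, led by the fatty acid binding proteins Fabp7 at 514 and 423 TPM, Fabp5 at 215 and 256 TPM and Fabp3 at 177 and 217 TPM. Fabp7 is on the Bergmann glia and astrocyte list as well. Ptgs2, the cyclooxygenase that can oxidise 2-AG, had 0 counts in both pools, which allows up to 0.0656 TPM and 0.0517 TPM. Among other enzymes of N-acylethanolamines, the lipid family of anandamide, 7 of 9 were detected. They were led by Gde1, a glycerophosphodiesterase, at 253 and 268 TPM, Gdpd1, a lysophospholipase D, at 112 and 75.3 TPM, and Pla2g16, a phospholipase and acyltransferase, at 35.9 and 41.3 TPM. Each of these 3, named as the highest of the group, stood above Napepld at 1.41 and 1.51 TPM, while not every gene of the group did. Hrasls5 had 0 counts in both pools, which allows up to 0.190 TPM and 0.150 TPM.

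Of other receptors and CB1 partners 4 of 8 were detected. Sgip1, which binds CB1 and slows its internalisation, was at 86.4 and 82.3 TPM, Gprasp1, a receptor sorting protein, at 51.9 and 43.9 TPM, and Cnrip1, which binds the tail of CB1, at 35.4 and 35.5 TPM. Trpv1, an ion channel that anandamide can open, had 0 counts in both pools, which allows up to 0.0750 TPM and 0.0591 TPM. All 4 G protein alpha subunits that CB1 can signal through were detected, led by Gnao1 at 138 and 129 TPM, Gnai1 at 120 and 107 TPM and Gnai2 at 27.4 and 30.3 TPM.

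**Figure D5:**
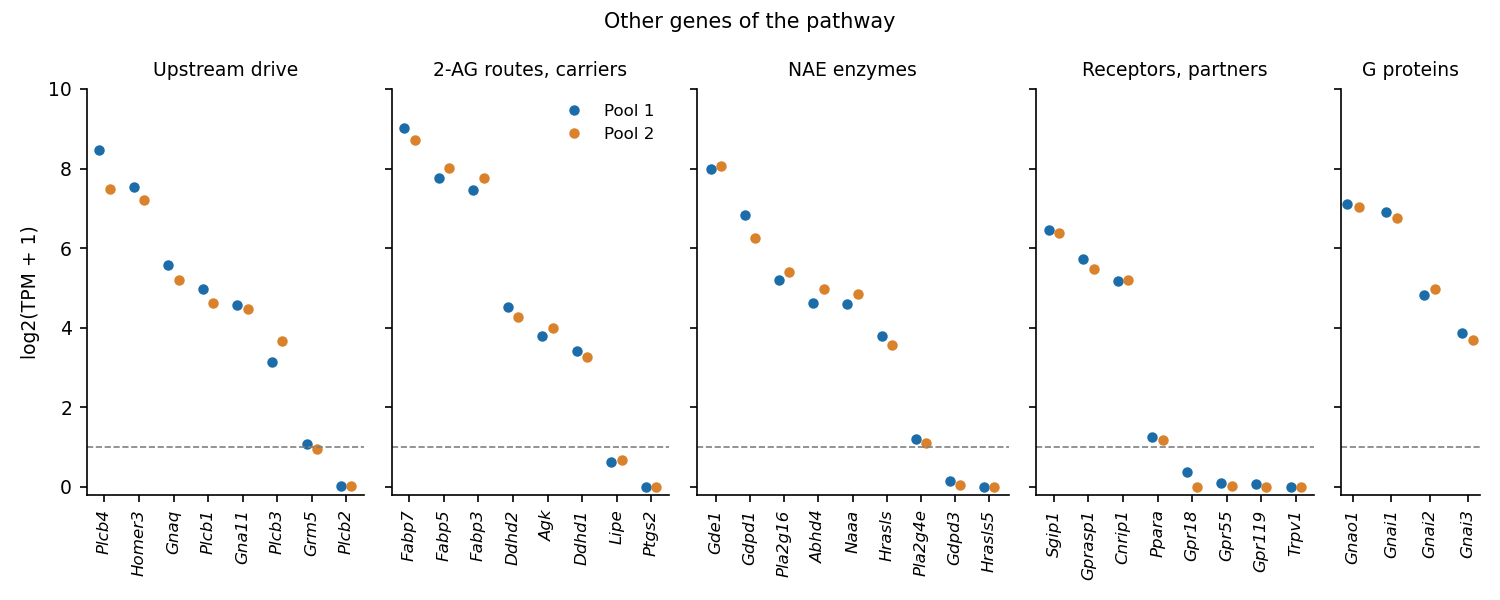
Levels of 37 other pathway genes as log2(TPM + 1) in pool 1 and pool 2, in 5 groups by role, each ordered by mean level, with NAE for N-acylethanolamine. The dashed line marks a TPM of 1, and Plcb4 shows a wider gap between the pools than the other upstream genes.

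The protein-coding genes nearest to a member in level over the 2 pools were found by the distance of log2(TPM + 1). For Abhd12 they were Luzp1 at 145 and 170 TPM, Mrps6 at 143 and 170 TPM and Stoml2 at 147 and 170 TPM, among 20 genes within 0.1. For Abhd6 they were Pcmt1, Lamtor3 and Pole4, among 33 genes within 0.1. For Cnr1 they were Mpzl1 at a distance of 0.02, Glmn at 0.02 and Rab33a at 0.03, among 48 genes within 0.1. With 2 pools this is nearness of level only.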

How the data were processed

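RNA-seq libraries of 2 Purkinje cell pools were analysed. Per the accompanying notes, the authors quantified genes and transcripts on mm10 with GENCODE M4. The aligner, quantifier and strand setting were not stated in those notes. In the deposited tables, expected counts estimate the reads of each gene or transcript. The deposited TPM are scaled by the authors to a fixed total with spike-ins included. Transcript shares are the deposited percent values. The deposited posterior SD of the counts and bounds of the TPM are scores in reads or TPM, and the level of the bounds is not given.

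Entries were 43346 mouse genes, 97 spike-ins and 26248 with numeric identifiers, which were left out. GENCODE M21 named 42462 genes. Ratios are of log2(TPM + 1) for a mean TPM of 1 or more. Exact Poisson intervals at 95% were taken on rounded expected counts, the limit for no counts is 3 counts, and both cover counting error only. Expected counts were rounded for edgeR 4.0.16 TMM and DESeq2 1.42.0 size factors in R 4.3.3, used as alternative scales with no test. Lowess over effective length and level used a span of 30%. Code in Python 3.11.15 with scipy 1.17.1, pandas 2.3.3, numpy 2.4.6, matplotlib 3.10.9 and statsmodels 0.14.6 was tested on simulated data. Depth was 23830685 and 27907662 counts. With 1 group no comparison between conditions was possible.

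The 9 genes, the pathway and marker lists were chosen with earlier results of these data known. Named are all members, the 3 highest genes of each pathway group and any with no counts, and the 3 genes nearest in level to Abhd12, Abhd6 and Cnr1. The 2 highest markers of the cell types named beside a member are named too, and Plcb1 and Plcb3 were added beside Plcb4. The values of 1 pathway gene, counted in its group, are not reported here. Protein sequences were not used here, so a planned motif search was not run. The lowess adjustment and pseudocount 0.1 for the count past 1.5-fold, and coding transcripts alone, were alternatives chosen after seeing the data.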

Additional observations from a re-analysis of the deposited data

How the results depend on the processing

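The values describe 2 pools of 1 group, from cells that may share an animal, with no test. By posterior mean TPM the mean share was 99.89% for Cnr1 and 83.9% for Faah, against 99.98% and 83.2%. By expected counts it was 60.2% for Dagla and 80.6% for Faah, against 44.3% and 83.2%. With coding transcripts alone Abhd12 took 35.3% of 2-AG breakdown, against 53.1%. The number of members past 1.5-fold was 1, and it was 0 at 2-fold, 2 with DESeq2 size factors, and 0 after adjustment for length and level. With either pool left out, the share ran from 38.4% to 50.2% for Dagla, from 51.1% to 55.1% for Abhd12, from 83.1% to 83.4% for Faah and from 99.96% to 100% for Cnr1. The number detected was 8 in each of the alternatives except at a TPM of 5, where it was 7. On the spike-in scale Cnr1 was at 0.34, Daglb at 0.54 and Abhd6 at 0.53 on the log2 scale, so these 3 were higher in pool 2, and Mgll was at 1.09. On that scale every gene moved by the same amount, since -0.66 was subtracted from each log2 ratio. The cause of that shift and of the other moves was not tested. Depth limits Cnr2, which had at most 1 count, and the Faah and Napepld transcripts.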
